A study of Mus musculus with 10 samples.

Results

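The progenitor cytokine receptors described here are 10 genes, of 25579 genes measured: Il7r, Il2rg, Crlf2, Il2ra, Kit, Flt3, Csf1r, Csf2ra, Csf2rb and Csf3r. They were taken by name, as receptors through which blood progenitors receive growth and survival signals, and all 10 passed the filter of at least 1 TPM (a transcript level that is scaled to gene length and library size) in at least 1 library. Their mRNA was measured by RNA-seq in 8 libraries from bone marrow cells of C57BL/6 mice, 2 for each of 4 Pax5 genotypes. Binding of Pax5 in and near the genes was taken from 2 ChIP-seq peak lists, 1 per genotype. Pax5 is the transcription factor that commits lymphoid progenitors to the B cell fate.

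The Pax5 +/+ cells carried both wild-type alleles, and the Pax5 +/- cells lacked 1 of them. The Pax5 R31Q/- cells carried the same kind of null allele opposite an allele for a Pax5 protein with the R31Q exchange in its DNA-binding paired domain. In the Pax5 fl/fl Vav-Cre cells, the floxed gene was deleted by a Cre recombinase driven from Vav sequences, which are active in blood cells from the stem cell onward. The labels name these cells progenitors, and pro-B cells in the case of the other genotypes. The gate by which the study defines pro-B cells includes surface B220 and Kit and the absence of CD2, IgM and IgD, so that Kit belongs to the gate and to the genes studied. The gate of the Pax5 fl/fl Vav-Cre cells is not given in the sources used here. The ChIP-seq cells were pro-B cells kept for a short time on OP9 stromal cells with IL-7. One ChIP-seq library was labelled Rag2 -/- and had wild-type Pax5, and the other was Pax5 R31Q/-, although 1 of its label fields writes Rag2 in place of Pax5.

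As background, the IL-7 receptor is built from the α-chain encoded by Il7r and the common γ-chain encoded by Il2rg, and it sustains pro-B cells through JAK kinases and STAT5. The same α-chain pairs with the product of Crlf2 to bind TSLP, a cytokine related to IL-7. Kit and Flt3 are receptor tyrosine kinases of stem cells and early progenitors, and Flt3 is shut off as cells commit to the B lineage. The receptors of the colony-stimulating factors (Csf1r, Csf2ra with Csf2rb, and Csf3r) serve the monocyte and granulocyte lineages, and Pax5 is known as a repressor of Flt3 and Csf1r.

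Between 21625964 and 34488614 reads per library lay behind the values, with the lowest depth in library 1 of the Pax5 fl/fl Vav-Cre cells. The 11 pro-B markers summed to 17492 to 20613 TPM in Pax5 +/+ cells and to 8431 to 9479 TPM in Pax5 fl/fl Vav-Cre cells. Of the 11, 9 fell and 1 rose, where 19.7% of all genes tested fell and 16.2% rose, and all stayed above 1 TPM. Pax5 itself was at 418 and 444 TPM in Pax5 +/+ cells, at 272 and 287 TPM in Pax5 +/- cells, at 306 and 293 TPM in Pax5 R31Q/- cells and at 1242 and 1409 TPM in the libraries labelled Pax5 fl/fl Vav-Cre. A value per gene does not show which exons were read, so it cannot serve as a check of the deletion. The summed TPM of 13 granulocyte and monocyte markers was 2328 in library 1 and 469 in library 2 of the Pax5 fl/fl Vav-Cre cells, and 707 and 1590 in the Pax5 +/- libraries. The tests used limma on log2 of TPM plus 1, which makes changes of low genes look smaller than they are, in 1 fit of all 8 libraries with p-values adjusted by the Benjamini-Hochberg method over 13436 genes. The labels do not say whether the 2 libraries of a genotype came from separate mice, so the p-values measure only the spread between libraries. An exact permutation of 2 libraries against 2 gives a two-sided p of 0.333 at the lowest.

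In the plot of receptor levels, Flt3 stood out with more than an order of magnitude between the Pax5 fl/fl Vav-Cre cells and all others. Il7r and Kit had their highest genotype means in Pax5 R31Q/- cells, and the means of Crlf2 and Csf2ra descended from Pax5 +/+ to Pax5 fl/fl Vav-Cre cells.

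**Figure D1:**
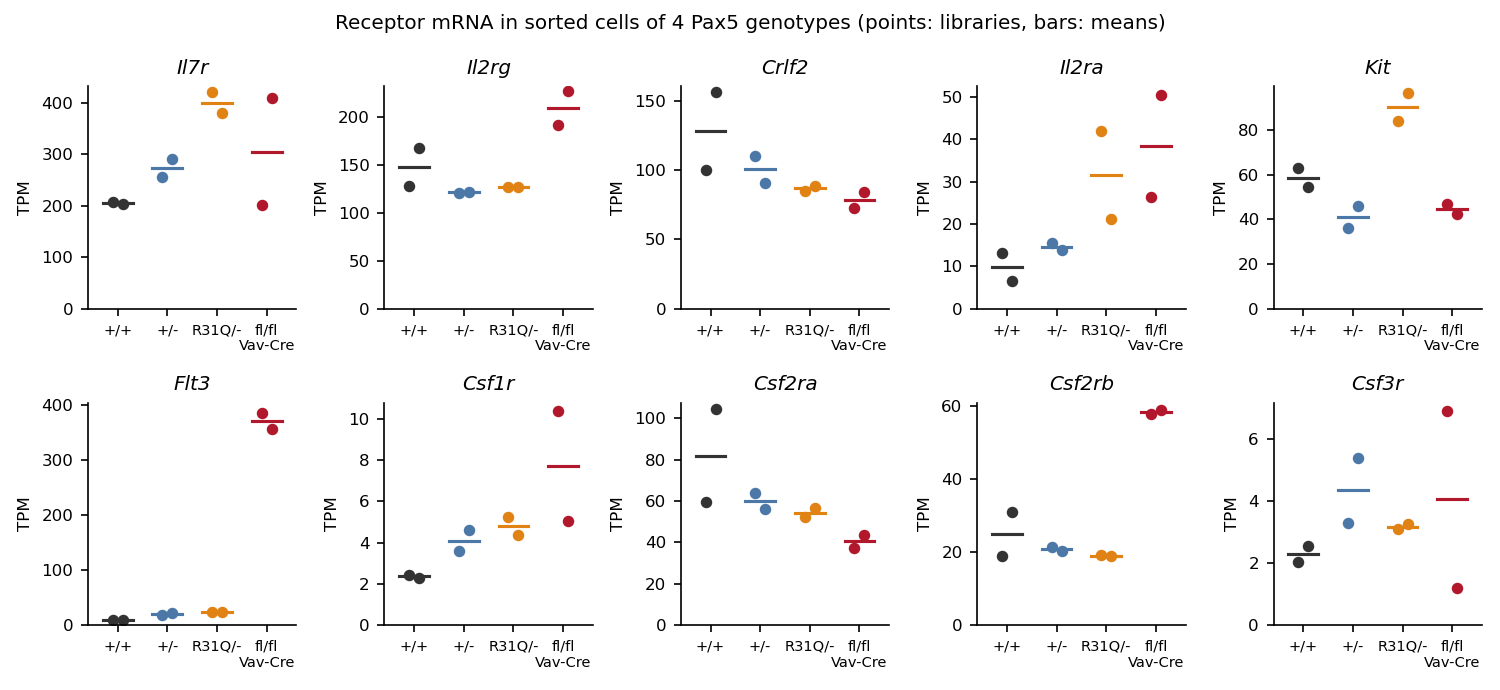
Level (TPM, linear axis from 0) of the 10 receptor genes in the 8 RNA-seq libraries, grouped by Pax5 genotype; each point is 1 library and each bar the mean of 2. The Pax5 fl/fl Vav-Cre libraries lie at 385 and 356 TPM for Flt3, against 9.54 to 23.9 TPM in the 6 other libraries.

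Il7r encodes the α-chain of the IL-7 and TSLP receptors and lies on chr15:9506159-9529941, minus strand (GRCm38). Its level was 206 and 204 TPM in Pax5 +/+ cells, 255 and 291 TPM in Pax5 +/- cells, 421 and 379 TPM in Pax5 R31Q/- cells, and 200.3 and 409 TPM in Pax5 fl/fl Vav-Cre cells. The Pax5 R31Q/- libraries lay above all 4 Pax5 +/+ and Pax5 +/- libraries, and the Pax5 fl/fl Vav-Cre pair included the lowest of all 8 values and the second highest. The mean was 1.95 times that of Pax5 +/+ cells in Pax5 R31Q/- cells (log2 difference 0.96 ± 0.29 SE), which did not pass the test (limma adjusted p = 0.124). It passed in 2 of 12 alternatives, in limma-voom on the recovered reads (adjusted p = 0.0394) and with only the 2 genotypes in the fit (adjusted p = 0.0137). Neither the Pax5 +/- difference (0.41 ± 0.29, adjusted p = 1) nor that of the Pax5 fl/fl Vav-Cre cells (0.48 ± 0.29, limma adjusted p = 0.223) passed. Without library 1 of the Pax5 fl/fl Vav-Cre cells, the latter was 0.995 with an adjusted p of 0.00331, and without library 2 it was -0.032 with an adjusted p of 0.849.

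The start of Il7r carried a Pax5 peak in the wild-type list, at chr15:9529726-9530027 (302 bp), which covered an annotated transcription start site (TSS). No peak of the R31Q list lay in the gene or within 10 kb of it. Of the 8593 genes with a wild-type peak over a TSS, 289 (3.4%) had only peaks that the R31Q list lacked, and Il7r was 1 of these. The other wild-type peak within 10 kb, at chr15:9539697-9540079, lay 9947 bp upstream, was also absent from the R31Q list and was 100% repeat-masked sequence. The 250 bases upstream of the Il7r start are shown beside those of Flt3, a gene whose start was bound in both lists, because the base composition of the starts differed. Both sequences were read from GRCm38.p6, are on the minus strand and have CG dinucleotides in capitals.
Il7r, chr15:9529942-9530191: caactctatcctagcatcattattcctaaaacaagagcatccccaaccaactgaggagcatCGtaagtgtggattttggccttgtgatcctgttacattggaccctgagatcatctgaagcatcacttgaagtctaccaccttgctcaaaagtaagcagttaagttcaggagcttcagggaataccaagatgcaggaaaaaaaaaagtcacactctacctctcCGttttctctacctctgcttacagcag
Flt3, chr5:147400490-147400739: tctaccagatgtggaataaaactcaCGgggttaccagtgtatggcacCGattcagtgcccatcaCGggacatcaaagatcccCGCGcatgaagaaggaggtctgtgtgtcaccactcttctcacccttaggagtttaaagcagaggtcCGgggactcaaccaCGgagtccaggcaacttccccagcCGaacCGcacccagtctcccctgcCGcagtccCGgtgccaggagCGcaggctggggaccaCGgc
The Il7r sequence holds 2 CG dinucleotides and the Flt3 sequence 13. Neither holds GCGTGAC or GCNTGAC, core letters of the Pax5 recognition sequence that were searched on both strands (each GCGTGAC is also a GCNTGAC). Of 32544 promoters in the RefSeq table, 2.1% held the first and 10.55% the second.

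Il2rg, the γ-chain shared by the receptors of IL-2, IL-4, IL-7, IL-9, IL-15 and IL-21, lies on chrX:101264385-101268255 (minus strand). Its level was 128 and 167 TPM in Pax5 +/+ cells, 120.3 and 122 TPM in Pax5 +/- cells, 127 and 126 TPM in Pax5 R31Q/- cells, and 192 and 227 TPM in Pax5 fl/fl Vav-Cre cells. The Pax5 fl/fl Vav-Cre libraries were the 2 highest, and the other 3 genotypes lay between 120.3 and 167 TPM. Il2rg was higher in Pax5 fl/fl Vav-Cre than in Pax5 +/+ cells (log2 difference 0.51 ± 0.15, limma adjusted p = 0.0322) and than in Pax5 R31Q/- cells (0.72 ± 0.15, limma adjusted p = 0.00938). The second of these calls held in 10 of 12 alternatives, and the first in 7 of 12. Without library 1 of Pax5 +/+ cells the difference was 0.31 (adjusted p = 0.123), and without library 2 of the Pax5 fl/fl Vav-Cre cells it was 0.39 (adjusted p = 0.101). No peak of either list lay in Il2rg, and the 1 peak of each list within 10 kb was next to the start of a neighbouring gene, Foxo4 in the wild-type list and Med12 in the R31Q list.

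Crlf2, which encodes the TSLP-binding chain, lies on chr5:109554709-109559128 (minus strand). Its level was 99.98 and 157 TPM in Pax5 +/+ cells, 111 and 90.8 TPM in Pax5 +/- cells, 85.2 and 88.9 TPM in Pax5 R31Q/- cells, and 73.1 and 84.1 TPM in Pax5 fl/fl Vav-Cre cells. Library 2 of Pax5 +/+ was the highest of all, and library 1 of Pax5 +/+ lay within the Pax5 +/- range. Crlf2 was lower in Pax5 fl/fl Vav-Cre than in Pax5 +/+ cells (log2 difference -0.67 ± 0.21, limma adjusted p = 0.0418), a call that held in 3 of 12 alternatives. Without library 2 of Pax5 +/+ the difference was -0.35 (adjusted p = 0.166). The 2 scalings other than TPM gave adjusted p-values of 0.0605 and 0.0718, and limma-voom on the recovered reads gave 0.0514. The difference of Pax5 R31Q/- from Pax5 +/+ cells was -0.52 ± 0.21 (limma adjusted p = 0.242). It was -0.84 without library 1 of Pax5 +/+ (adjusted p = 0.0495) and -0.198 without library 2 (adjusted p = 0.779).

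Crlf2 lay under 1 of the widest Pax5 peaks. The peak of the wild-type list at chr5:109556672-109559308 was 2637 bp wide and covered the start site and most of the gene, and that of the R31Q list was 2735 bp wide. Csf2ra, described further on, held another such peak, and both belonged to the 15 wild-type peaks wider than 2 kb among 41983. The R31Q list had 116 peaks of more than 2 kb among 18821. A set of 3 smaller wild-type peaks downstream of Crlf2, nearest to the start of the gene Gm8493, all held GCGTGAC within the 300 bases around their midpoints. Among the 22 wild-type peaks in or within 10 kb of the receptors, 5 (22.7%) held GCGTGAC, against 3.8% of all wild-type peaks, 7.3% of the common and 1.7% of the unique ones. GCNTGAC was in 7 of the 22 (31.8%), against 48.0% of all wild-type peaks and 18.1% of the common ones. At least 50% of the bases were repeat-masked in 1 of the 22, and of all wild-type peaks under 50% masked, 6.6% held the first motif and 19.1% the second. The windows are printed with 20 bases on either side of the motif in capitals, on the strand that reads GCGTGAC, because peaks found in both lists and peaks found in 1 list carried the same 7 letters. That of Csf2ra overlapped an exon and is not printed.
Kit, both lists, chr5:75604727-75604773, minus strand: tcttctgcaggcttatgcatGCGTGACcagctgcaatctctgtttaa
Crlf2, both lists, chr5:109551308-109551354, minus strand: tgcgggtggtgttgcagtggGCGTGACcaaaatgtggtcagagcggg
Crlf2, wild-type list, chr5:109552206-109552252, plus strand: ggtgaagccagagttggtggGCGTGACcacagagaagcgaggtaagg
Crlf2, wild-type list, chr5:109553256-109553302, minus strand: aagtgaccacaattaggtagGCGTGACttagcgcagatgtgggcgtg
Csf3r, R31Q list, chr4:126051746-126051792, minus strand: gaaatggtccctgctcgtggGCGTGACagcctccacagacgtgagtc
A match is a string of letters within a peak and was not tested as a binding site.

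Il2ra encodes CD25, the α-chain of the IL-2 receptor, which is known as a surface marker of pre-B cells, and lies on chr2:11642792-11693194 (plus strand). Its level was 13.02 and 6.55 TPM in Pax5 +/+ cells, 15.4 and 13.9 TPM in Pax5 +/- cells, 41.9 and 21.1 TPM in Pax5 R31Q/- cells, and 26.4 and 50.4 TPM in Pax5 fl/fl Vav-Cre cells. The 4 libraries with the R31Q or deleted alleles all lay above the other 4. Within each of those genotypes, and also within Pax5 +/+, the libraries differed by about a factor of 2. Il2ra was higher in Pax5 fl/fl Vav-Cre than in Pax5 +/+ cells (log2 difference 1.87 ± 0.43, limma adjusted p = 0.0125, 3.93 times the mean TPM). Without library 2 of Pax5 +/+ this was 1.42 (adjusted p = 0.0861), and without library 2 of the Pax5 fl/fl Vav-Cre cells it was 1.41 (adjusted p = 0.0585). In Pax5 R31Q/- cells the mean was 3.22 times that of Pax5 +/+ cells (log2 difference 1.58 ± 0.43), which did not pass (limma adjusted p = 0.0964), except in limma-voom on the recovered reads (adjusted p = 0.0408). A further gene, Gm39760, overlaps Il2ra on the other strand, and the strand setting of the counts is not given in the sources used here.

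Il2ra is also 1 of the markers of pre-B and later B cells, of which 5 were tested. In Pax5 fl/fl Vav-Cre cells Il2ra was the 1 marker that rose from Pax5 +/+, and the 4 others fell, with a median log2 difference of -1.37 over the 5, where 16.2% of all genes rose and 19.7% fell. In Pax5 R31Q/- cells 2 fell (Cd22 and Ms4a1) and 0 rose, with a median of -0.89, where 2.55% of all genes fell and 1.62% rose. The list sum was 86.8 to 96.4 TPM in Pax5 +/+ cells, 53.2 to 79.7 TPM in Pax5 R31Q/- cells and 46.9 to 72.1 TPM in Pax5 fl/fl Vav-Cre cells. Il2ra had the highest mean TPM of its genes in the last 2 genotypes.

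Il2ra was the one receptor with an unshared peak of each list inside the gene. The wild-type list had an intronic peak at chr2:11659487-11659779, 16841 bp downstream of the start, and the R31Q list had another at chr2:11653337-11653856, 10804 bp downstream. There were 3 further peaks in both lists, 2 of them 6528 and 5511 bp upstream and 1 in an intron. The unique peaks are printed on the plus strand of GRCm38.p6, the second as its central 300 bases, because they mark where the lists differ. Capitals would mark GCNTGAC, which neither holds.
Il2ra, wild-type list, chr2:11659487-11659779: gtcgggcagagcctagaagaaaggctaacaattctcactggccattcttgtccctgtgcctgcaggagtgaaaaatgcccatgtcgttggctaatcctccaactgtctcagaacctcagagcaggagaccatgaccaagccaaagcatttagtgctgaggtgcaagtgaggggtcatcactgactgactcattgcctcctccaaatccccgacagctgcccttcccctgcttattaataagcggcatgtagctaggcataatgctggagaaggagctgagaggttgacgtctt
Il2ra, R31Q list, chr2:11653447-11653746: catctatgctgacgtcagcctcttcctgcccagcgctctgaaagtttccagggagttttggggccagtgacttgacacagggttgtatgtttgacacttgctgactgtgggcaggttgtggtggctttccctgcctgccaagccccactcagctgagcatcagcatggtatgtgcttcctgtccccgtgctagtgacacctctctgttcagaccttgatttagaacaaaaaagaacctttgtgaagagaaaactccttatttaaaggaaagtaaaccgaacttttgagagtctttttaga

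Kit, the receptor of stem cell factor and part of the pro-B cell gate, lies on chr5:75574987-75656722 (plus strand). Its level was 62.8 and 54.7 TPM in Pax5 +/+ cells, 35.9 and 46.1 TPM in Pax5 +/- cells, 84.2 and 96.7 TPM in Pax5 R31Q/- cells, and 47.0 and 42.3 TPM in Pax5 fl/fl Vav-Cre cells. Pax5 R31Q/- cells were highest and Pax5 +/+ cells second without overlap, while the Pax5 +/- and Pax5 fl/fl Vav-Cre libraries overlapped. Kit was the only receptor that passed between the genotypes that differ by the R31Q allele, being higher in Pax5 R31Q/- than in Pax5 +/- cells (log2 difference 1.13 ± 0.16, limma adjusted p = 0.0328, 2.21 times the mean TPM). When any 1 of the 4 libraries was left out the difference was 0.96 to 1.30, and fits with 1 library in a genotype cannot decide the call. Without the filter on low values Kit did not pass against Pax5 +/- cells. It was lower in Pax5 fl/fl Vav-Cre than in Pax5 R31Q/- cells (-1.001 ± 0.16, limma adjusted p = 0.00283), a call that held in all 12 alternatives. Against Pax5 +/+, the differences were 0.61 ± 0.16 in Pax5 R31Q/- cells (limma adjusted p = 0.0803) and -0.52 ± 0.16 in Pax5 +/- cells (limma adjusted p = 0.531). Surface Kit is part of the pro-B cell gate, and the part of the sort in these levels was not tested.

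All 3 Pax5 peaks of Kit were found in both lists. A pair lay at start sites (chr5:75574807-75575168 and chr5:75575640-75576118), and the intronic one at chr5:75604494-75604971, 28980 bp from the nearest start, holds the GCGTGAC shown above.

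Flt3 encodes the receptor of the Flt3 ligand on multipotent and lymphoid progenitors and lies on chr5:147330741-147400489 (minus strand). Its level was 9.79 and 9.54 TPM in Pax5 +/+ cells, 18.8 and 21.6 TPM in Pax5 +/- cells, 23.6 and 23.9 TPM in Pax5 R31Q/- cells, and 385 and 356 TPM in Pax5 fl/fl Vav-Cre cells. The 4 genotypes did not overlap. Flt3 was the only receptor that passed between Pax5 R31Q/- and Pax5 +/+ cells, at 2.46 times the mean TPM (log2 difference 1.21 ± 0.12, limma adjusted p = 0.00257), and it passed in all 12 alternatives (adjusted p of 0.0022 to 0.0466). In Pax5 fl/fl Vav-Cre cells it was 38.4 times the Pax5 +/+ level (log2 difference 5.12 ± 0.12, limma adjusted p = 9.98e-07) and 15.6 times the Pax5 R31Q/- level (3.91 ± 0.12, limma adjusted p = 4.93e-06), and both held in all 12 alternatives.

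Pax5 +/- cells, with 1 wild-type allele and no R31Q allele, had 2.09 times the Flt3 level of Pax5 +/+ cells (log2 difference 0.99 ± 0.12, limma adjusted p = 0.0692). This passed in 2 of 12 alternatives, without the filter on low values (adjusted p = 0.0417) and without the variance trend (adjusted p = 0.04996). Between Pax5 R31Q/- and Pax5 +/- cells, which share the null allele, the difference was 0.22 ± 0.12 (limma adjusted p = 0.719).

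Dendritic cell markers, which mark other Flt3-expressing cells, were higher in the Pax5 fl/fl Vav-Cre libraries too, where 16.2% of all genes tested rose and 19.7% fell. The summed level of 7 dendritic cell markers was 663 to 695 TPM in Pax5 +/+ cells and 3710 to 4547 TPM in Pax5 fl/fl Vav-Cre cells. Most of that sum was Ly6d, which early B-lineage progenitors also express, with a mean of 3201 TPM. All 6 dendritic cell markers that were tested rose. Of these, Itgax and Batf3 reached 1 TPM only in Pax5 fl/fl Vav-Cre libraries, so their rise followed in part from the filter. Batf3 was at 0 in both Pax5 +/+ libraries. The 8 stem cell and progenitor markers went from 30.01 to 32.7 TPM to 188 to 229 TPM, with Mecom at 0 in both Pax5 fl/fl Vav-Cre libraries and 2 of 5 tested genes higher (Cd34 and Ly6a) and 2 lower (Meis1 and Slamf1). Nearly all of the higher sum was Ly6a, with a mean of 194 TPM. The 8 G2/M phase genes all fell, from sums of 908 to 1504 TPM to 224 to 262 TPM. The part of these in the Flt3 difference was not tested. In bulk libraries, more cells of a type and more RNA per cell cannot be told apart.

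The binding lists did not differ at Flt3. All 5 wild-type peaks in the gene body were also in the R31Q list, as were all 9 within 50 kb. The first, at chr5:147400229-147400503, lay over the start site, where the noncoding gene Gm26597 overlaps on the other strand. Its R31Q counterpart, chr5:147400060-147400668, was 609 bp wide against 275 bp and therefore did not count as common under a rule of 50% reciprocal overlap. Over the whole lists, the median peak width was 559 bp in the R31Q list and 332 bp in the wild-type list. The 4 other wild-type peaks in the gene lay between 33888 and 61325 bp from its 5′ start. Those at chr5:147363081-147363406 and chr5:147366485-147366717 were 1583 and 1774 bp from another annotated start site of Flt3.

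**Figure D2:**
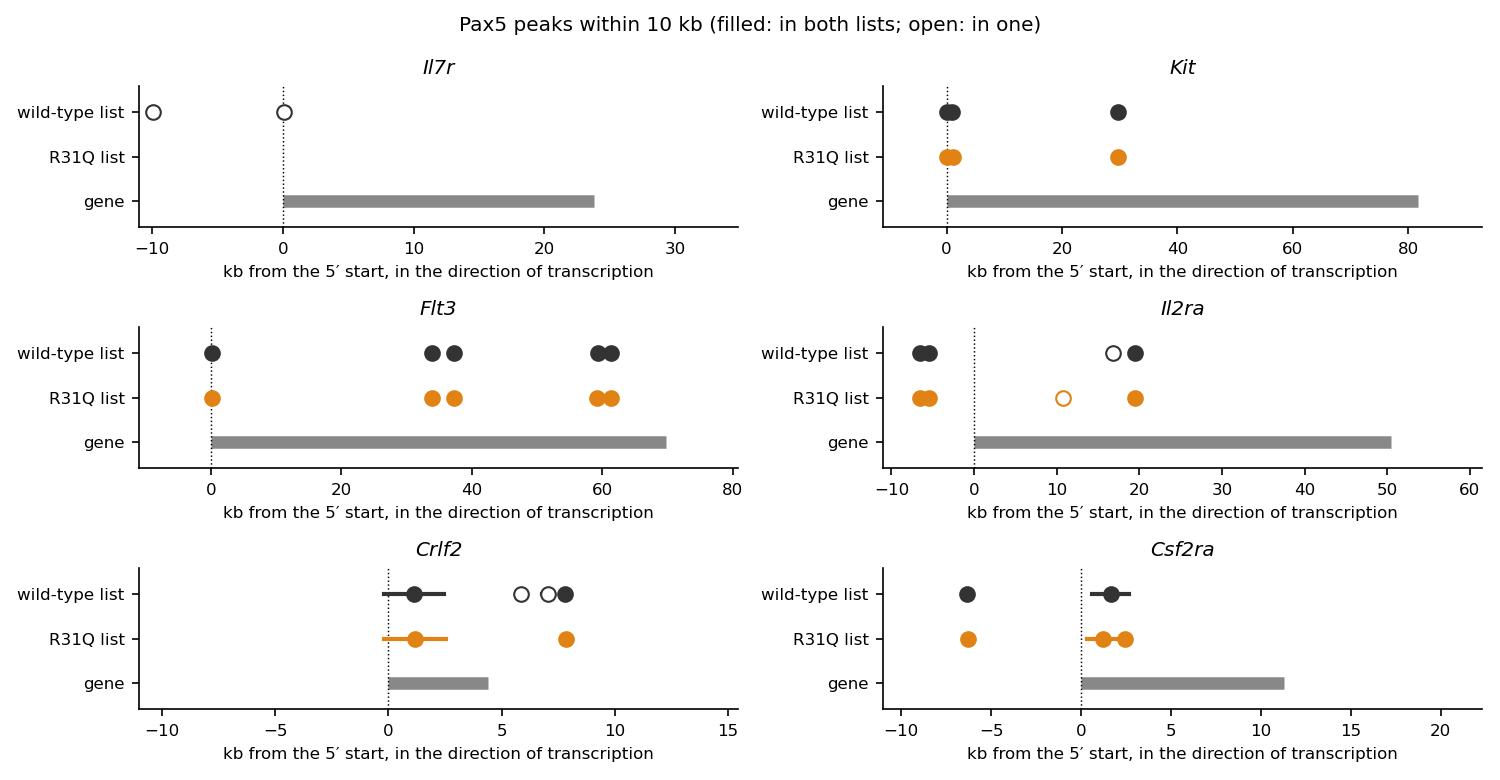
Pax5 peaks in and within 10 kb of 6 receptor genes, by distance from the 5′ start (kb, direction of transcription to the right); circles are peak midpoints, bars peak widths to scale, grey bars the genes, and filled circles peaks found in both lists. Flt3 and Kit have filled circles throughout, and the 2 open circles of Il7r have no counterpart in the R31Q list.

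Csf1r encodes the receptor of M-CSF, the growth factor of monocytes and macrophages. It was low in every library, at 2.43 and 2.29 TPM in Pax5 +/+ cells, 3.57 and 4.63 TPM in Pax5 +/- cells, 5.22 and 4.36 TPM in Pax5 R31Q/- cells, and 10.4 and 5.04 TPM in Pax5 fl/fl Vav-Cre cells, with 110 to 404 reads behind these values. The Pax5 +/+ libraries were the 2 lowest, and among the other genotypes each overlapped the next in the order of their means. Csf1r was higher in Pax5 fl/fl Vav-Cre than in Pax5 +/+ cells (log2 difference 1.31 ± 0.30, limma adjusted p = 0.0117, 3.27 times the mean TPM). Without either Pax5 +/+ library the adjusted p was 0.0545 or 0.0637. Without library 1 of the Pax5 fl/fl Vav-Cre cells, the one with the high granulocyte and monocyte sum, the difference was 0.85 (adjusted p = 0.0218). In Pax5 R31Q/- cells it was 0.78 ± 0.30 (limma adjusted p = 0.212). Mir6983 and Gm52352 overlap the gene, and no Pax5 peak of either list lay in it or within 10 kb, though 3 peaks of each list, all common, lay within 50 kb.

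Csf3r, the receptor of G-CSF on granulocytes and their precursors, lies on chr4:126023441-126044975 (plus strand). Its level was 2.04 and 2.55 TPM in Pax5 +/+ cells, 3.29 and 5.40 TPM in Pax5 +/- cells, 3.10 and 3.25 TPM in Pax5 R31Q/- cells, and 6.90 and 1.21 TPM in Pax5 fl/fl Vav-Cre cells, with 69 to 296 reads. The highest and the lowest library were both Pax5 fl/fl Vav-Cre. No comparison passed, and the difference of Pax5 fl/fl Vav-Cre from Pax5 +/+ cells was 0.35 ± 0.52 (limma adjusted p = 0.629). Without library 2 of the Pax5 fl/fl Vav-Cre cells it was 1.27 (adjusted p = 0.0114), and without library 1 it was -0.57 (adjusted p = 0.154). Csf3r had its 2 highest values, 6.90 and 5.40 TPM, in the libraries with the 2 highest granulocyte and monocyte sums, 2328 and 1590 TPM. The order did not hold among the other 6, in which sums of 433, 469, 657, 707, 985 and 1039 TPM went with Csf3r at 2.55, 1.21, 2.04, 3.29, 3.25 and 3.10 TPM. In the sum, S100a9 was the most abundant gene in each genotype, and 12 of 13 markers exceeded 1 TPM in both libraries of each genotype. The part of such cells in the Csf1r and Csf3r levels was not tested. Gm32908 overlaps Csf3r on the other strand. No peak lay within Csf3r. Downstream, 1 peak next to the start of Mrps15 was in both lists and 1 was in the R31Q list only.

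**Figure D3:**
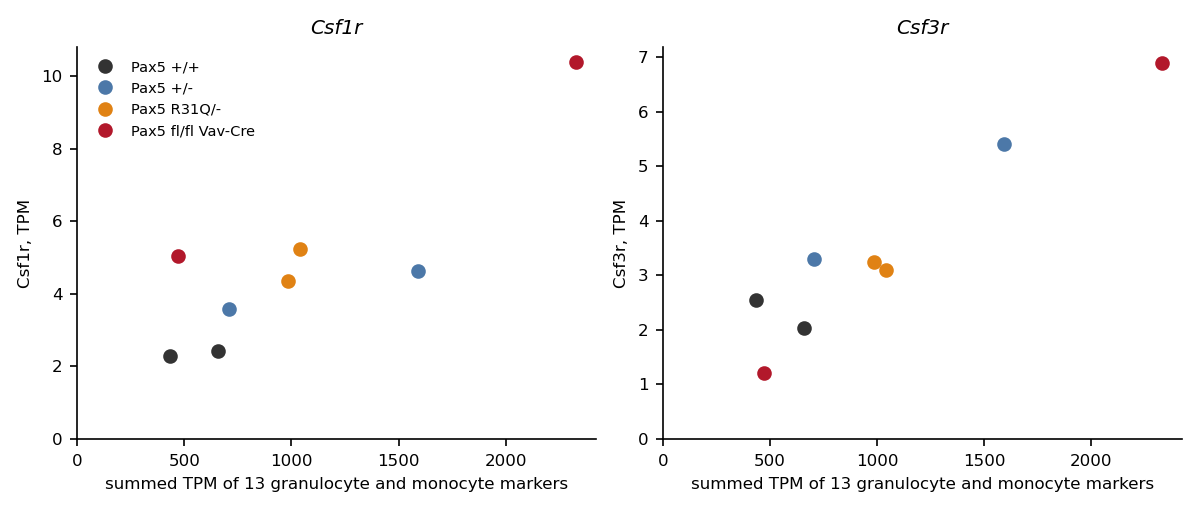
Level of Csf1r and Csf3r (TPM) in each of the 8 libraries against the summed TPM of 13 granulocyte and monocyte markers in the same library, coloured by genotype. The 2 Pax5 fl/fl Vav-Cre libraries lie far apart, with sums of 2328 and 469 TPM, and Csf3r levels of 6.90 and 1.21 TPM.

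The GM-CSF receptor joins the ligand-binding chain of Csf2ra to the β-chain of Csf2rb, and the chains differed in direction in Pax5 fl/fl Vav-Cre cells. Csf2ra (chr19:61217191-61228461, minus strand) was at 59.6 and 104 TPM in Pax5 +/+ cells, 64.1 and 55.9 TPM in Pax5 +/- cells, 52.0 and 56.4 TPM in Pax5 R31Q/- cells, and 37.1 and 43.7 TPM in Pax5 fl/fl Vav-Cre cells. Library 2 of Pax5 +/+ was the highest, as for Crlf2, and the Pax5 fl/fl Vav-Cre libraries were the 2 lowest. It was lower in Pax5 fl/fl Vav-Cre than in Pax5 +/+ cells (log2 difference -0.95 ± 0.24, limma adjusted p = 0.0189), and this held in 10 of 12 alternatives. Without library 1 of the Pax5 fl/fl Vav-Cre cells the adjusted p was 0.0985, and without library 2 of Pax5 +/+ the difference was -0.55. In Pax5 R31Q/- cells it was -0.53 ± 0.24 (limma adjusted p = 0.288), being -0.93 without library 1 of Pax5 +/+ (adjusted p = 0.0391) and -0.135 without library 2 (adjusted p = 0.851).

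Csf2rb (chr15:78325800-78351001, plus strand) was at 19.0 and 30.8 TPM in Pax5 +/+ cells, 21.3 and 20.2 TPM in Pax5 +/- cells, 19.0 and 18.9 TPM in Pax5 R31Q/- cells, and 57.8 and 58.9 TPM in Pax5 fl/fl Vav-Cre cells. The Pax5 fl/fl Vav-Cre libraries stood apart from the 6 others. Csf2rb was higher there than in Pax5 +/+ cells (log2 difference 1.24 ± 0.21, limma adjusted p = 0.00316) and than in Pax5 R31Q/- cells (1.57 ± 0.21, limma adjusted p = 0.00133), and both held in all 12 alternatives. Its near-identical neighbour Csf2rb2, the mouse β-chain for IL-3, went from 8.55 and 15.4 TPM in Pax5 +/+ cells to 40.5 and 52.3 TPM in Pax5 fl/fl Vav-Cre cells (log2 difference 1.91 ± 0.25, limma adjusted p = 0.00106). Uniquely mapping reads were counted, and how reads of sequence shared by the pair were divided cannot be seen, so both values are uncertain. Mir7676-2 also lies within Csf2rb.

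At Csf2ra, the 2069 bp wide peak of the wild-type list at chr19:61225785-61227853 lay within the gene, and the R31Q list had peaks of 480 and 1751 bp in its place. A second peak, 6328 bp upstream of the start, was also in both lists. No Pax5 peak of either list lay within 50 kb of Csf2rb.

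Counted over the 10 receptors, 1 rose and 0 fell from Pax5 +/+ to Pax5 R31Q/- cells, where 1.62% of the 13436 genes tested were higher and 2.55% lower. At an unadjusted p under 0.05, 6 of the 10 passed in either direction, as did 18.8% of all genes tested. In Pax5 +/- cells 0 passed limma's adjusted threshold in either direction, with 0% of all genes higher and 0.0223% lower. There, 2 passed at an unadjusted p under 0.05, as did 6.06% of all genes. With limma without the filter or without the trend 1 passed the adjusted threshold, beside 0.141% and 0.216% of all genes. In Pax5 fl/fl Vav-Cre cells 5 were higher (Flt3, Il2ra, Csf1r, Csf2rb and Il2rg) and 2 lower (Csf2ra and Crlf2), against 16.2% and 19.7% of all genes. Between Pax5 R31Q/- and Pax5 +/- cells 1 was higher (Kit), with 0.268% of all genes higher and 0.35% lower. Between Pax5 fl/fl Vav-Cre and Pax5 R31Q/- cells 3 were higher (Flt3, Csf2rb and Il2rg) and 1 lower (Kit), against 14.7% and 19.9%. These comparisons share libraries, so their counts are not independent. The median log2 difference of the 10 receptors was 0.48 in Pax5 R31Q/- and 0.49 in Pax5 fl/fl Vav-Cre cells against Pax5 +/+, beside 0.04 and -0.11 over all genes tested.

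The study counted a gene as changed when it also differed more than 3-fold and had a mean above 5 TPM in a genotype, without immunoglobulin genes. With the fold taken on the log2(TPM + 1) scale, 0 receptors changed in Pax5 R31Q/- cells, where 0.834% of all genes tested did, and 2 receptors changed in Pax5 fl/fl Vav-Cre cells (Flt3 and Il2ra), where 6.32% did. With the fold taken as the ratio of mean TPM, an alternative chosen after the values were seen, Csf1r passed as well, which gave 0 and 3 receptors beside 0.975% and 7.27% of all genes. With a threshold of 2-fold on the log2(TPM + 1) scale the counts were 1 and 4, beside 1.98% and 12.3%.

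**Figure D4:**
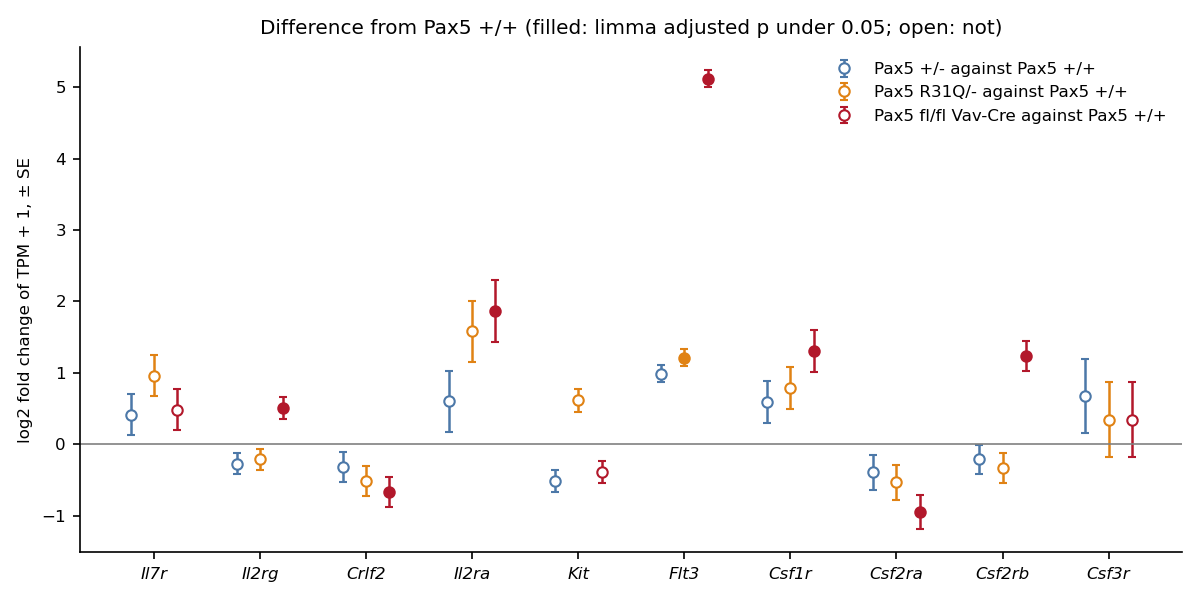
Log2 fold change (TPM + 1) of the 10 receptor genes from Pax5 +/+ in the 3 other genotypes, with standard errors from limma; filled points passed an adjusted p of 0.05. Filled points are Flt3 in Pax5 R31Q/- cells and 7 receptors in Pax5 fl/fl Vav-Cre cells, with Flt3 at 5.12.

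Over all receptors, 22 wild-type peaks lay in the genes or within 10 kb, of which 16 (72.7%, exact 95% binomial interval 49.8% to 89.3%) overlapped a peak of the R31Q list by at least 1 bp. Of all 41983 wild-type peaks, 37.5% did so, and of those less than 50% repeat-masked, 67.4%. One of the 22 peaks was at least 50% masked. Of the 20 R31Q peaks near the receptors, 17 were common, and 81.6% of all 18821 were. The 6 wild-type peaks without counterpart were 2 at Il7r, 2 downstream of Crlf2, 1 in Il2ra and 1 next to Il2rg. There was 1 ChIP-seq library per genotype, from cultured cells, so these counts have no replicate check, and the interval covers counting error only. The labels give Rag2 -/- for the wild-type list only, so Rag2 and Pax5 genotype cannot be told apart between the lists.

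Of the genes that carry signals from these receptors, 12 of γ-chain and TSLP receptor signalling were tested. One rose in Pax5 R31Q/- cells, Pik3r1, a regulatory subunit of PI3K, from 49.6 ± 6.29 TPM (SD, n = 2) to 113 ± 2.83 TPM (log2 difference 1.17 ± 0.13, limma adjusted p = 0.0042). In Pax5 fl/fl Vav-Cre cells 1 rose (Pik3r1, 1.52 ± 0.13, limma adjusted p = 0.000143) and 2 fell, Foxo1 (-1.49 ± 0.17, limma adjusted p = 0.000455), a transcription factor that is known to activate Il7r, and Akt1 (-0.38 ± 0.13, limma adjusted p = 0.0493). The JAK and STAT genes of the list did not pass in either comparison, and the list medians were -0.07 and 0.03, beside 0.04 and -0.11 over all genes. Of all genes tested, 1.62% were higher and 2.55% lower in Pax5 R31Q/- cells, and 16.2% and 19.7% in Pax5 fl/fl Vav-Cre cells.

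Of 13 STAT5 feedback and target genes, 1 was higher and 1 lower in Pax5 R31Q/- cells, against 1.62% and 2.55% of all genes, and 4 were higher and 3 lower in Pax5 fl/fl Vav-Cre cells, where 16.2% and 19.7% of all genes were (list medians -0.03 and 0.30). Bcl2l1, which encodes the survival protein Bcl-xL, fell from 114 ± 7.36 TPM in Pax5 +/+ to 51.3 ± 5.94 TPM in Pax5 R31Q/- cells (log2 difference -1.14 ± 0.13, limma adjusted p = 0.0042) and to 16.9 ± 1.38 TPM in Pax5 fl/fl Vav-Cre cells (-2.68 ± 0.13, limma adjusted p = 1.27e-05). Ccnd2, for cyclin D2, rose from 83.2 ± 2.68 TPM to 158 ± 13.6 TPM (0.92 ± 0.12, limma adjusted p = 0.00785) and 359 ± 2.27 TPM (2.10 ± 0.12, limma adjusted p = 2.59e-05). Ccnd3, for cyclin D3, fell in Pax5 fl/fl Vav-Cre cells (-1.39 ± 0.13, limma adjusted p = 0.000167), while Myc rose (1.40 ± 0.20, limma adjusted p = 0.00143).

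Of 14 genes of receptor tyrosine kinase signalling and its attenuation, 0 were higher and 1 lower in Pax5 R31Q/- cells, against 1.62% and 2.55% of all genes, and 1 was higher and 6 lower in Pax5 fl/fl Vav-Cre cells, against 16.2% and 19.7% of all genes (list medians -0.03 and -0.27, the latter beside -0.11 over all genes). Lyn, a Src family kinase, was the one that fell in Pax5 R31Q/- cells (-0.66 ± 0.12, limma adjusted p = 0.0229) and it also fell in Pax5 fl/fl Vav-Cre cells (-0.80 ± 0.12, limma adjusted p = 0.00165). The feedback inhibitors Spry2 (-0.96 ± 0.18, limma adjusted p = 0.00464) and Dusp6 (-0.73 ± 0.16, limma adjusted p = 0.00915) and the adaptor Gab2 (-0.73 ± 0.11, limma adjusted p = 0.00188) fell in Pax5 fl/fl Vav-Cre cells.

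Of 25 other cytokine receptor subunits, 22 were tested. In Pax5 R31Q/- cells 1 was higher (Ifngr1, a chain of the interferon-γ receptor, 0.88, limma adjusted p = 0.0149) and 0 lower, against 1.62% and 2.55% of all genes, and in Pax5 fl/fl Vav-Cre cells 13 were higher and 3 lower, against 16.2% and 19.7% of all genes, with a median log2 difference of 0.69 beside -0.11 over all genes. Il18r1, an IL-18 receptor chain, was at 0.147 ± 0.0892 TPM in Pax5 +/+ and 56.7 ± 33.5 TPM in Pax5 fl/fl Vav-Cre cells (5.52 ± 0.37, limma adjusted p = 4.43e-05). Il2rb, the β-chain of the IL-2 and IL-15 receptors, rose to 4.37 ± 2.03 TPM (1.97 ± 0.30, limma adjusted p = 0.00204), and Pdgfrb to 3.92 ± 2.58 TPM (1.78 ± 0.33, limma adjusted p = 0.00512). Il18r1, Il2rb and Pdgfrb reached 1 TPM only in Pax5 fl/fl Vav-Cre libraries, so their rise followed in part from the filter. The 8 NK and innate lymphoid cell markers, which include Il18r1, summed to 25.1 to 27.3 TPM in Pax5 +/+ and 127 to 136 TPM in Pax5 fl/fl Vav-Cre cells. Of the 5 tested, 4 rose (Il18r1, Nkg7, Id2 and Gzma), of which Il18r1 passed the filter only through the Pax5 fl/fl Vav-Cre libraries. The 1 that fell was Klrb1c, an NK cell receptor and the most abundant of the list in Pax5 +/+ cells. It went from 13.8 and 15.7 TPM to 6.17 and 6.35 TPM. The 9 T cell markers summed to 140 to 178 TPM and 435 to 449 TPM. Most of the latter sum was Lck, a kinase of lymphocyte receptor signalling, with a mean of 272 TPM. Of the 5 T cell markers tested, 2 rose (Lck and Tcf7), while the T cell receptor chains Cd3d, Cd3e and Cd3g stayed under 1 TPM in all 8 libraries. The part of such cells was not tested. Of 10 ligands of the receptors, 3 reached the filter. Csf1, the ligand of Csf1r, fell in Pax5 fl/fl Vav-Cre cells from 7.89 ± 0.235 to 3.96 ± 0.751 TPM (-0.85 ± 0.17, limma adjusted p = 0.00715), and the 2 others did not pass against Pax5 +/+.

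For each receptor that passed a test, the genes with the most similar pattern over the 8 libraries were found by the root mean square difference of log2(TPM + 1) values centred on each gene's mean. The closest to Crlf2 was Il3ra, the ligand-binding chain of the IL-3 receptor, at a difference of 0.0685, with means of 86.1, 70.9, 58.0 and 58.0 TPM in Pax5 +/+, Pax5 +/-, Pax5 R31Q/- and Pax5 fl/fl Vav-Cre cells. The likest genes to Flt3 were less close, Il18rap at 0.359, Bex6 at 0.362 and Ffar2 at 0.399. Il18rap, the other IL-18 receptor chain, had means of 0.987, 1.68, 2.04 and 72.3 TPM in the same order. Those to Il2ra were Ext1 (0.279), Tulp4 (0.317) and Brwd1 (0.319), with Ext1 at 19.4, 28.3, 56.1 and 83.0 TPM. The nearest genes were Kcnf1 (0.165) for Kit, Dalrd3 (0.0573) for Il2rg, Trem3 (0.0781) for Csf1r, Gm15441 (0.0692) for Csf2ra and Pik3r6 (0.087) for Csf2rb. These distances rest on 8 libraries that share the same genotypes and are a description only.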

How the data were processed

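RNA-seq values of 8 libraries (2 per genotype) and Pax5 ChIP-seq peaks of 2 libraries were taken as deposited. To make the TPM values, the authors removed ribosomal reads, aligned the rest to GRCm38/mm10 with STAR 2.4.2 and counted uniquely mapping reads of 25579 RefSeq genes with featureCounts. For the peaks, per the labels and the study's methods, reads were aligned with Bowtie2 2.3.5.1, reads were down-sampled where needed, and peaks were called with MACS against an input, separately per library. The deposited peak files give positions, with a score of 0 throughout that was not used. The study tested read counts with DESeq2, and those counts were not used here.

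Expression on the log2(TPM + 1) scale was tested in R 4.3.3 by limma 3.58.1, with eBayes and a variance trend, in genes of at least 1 TPM in at least 1 library. All 4 genotypes shared 1 fit. The spacing of low TPM values gave back whole reads in all 18206 genes above 0 in at least 2 libraries (tolerance 0.001 reads), which gave 21625964 to 34488614 reads per library. They were tested with limma-voom as an alternative. On simulated data for Pax5 R31Q/- against Pax5 +/+ (13436 genes, 200 changed), limma recovered 95.5% of genes changed 4-fold with 9 false calls, and 0.5% of those changed 2-fold with 4. The simulated spread between libraries was assumed and not estimated from these libraries, so the share of 2-fold changes missed here cannot be read from it.

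A peak was common when it overlapped a peak of the other list by at least 1 bp, and near a gene when within 10 kb of its RefSeq span. Sequences, TSSs and masking came from RefSeq on GRCm38.p6. Promoters of all genes were the RefSeq table's windows. Python 3.11.15, pandas 2.3.3, scipy 1.17.1, pysam 0.24.0 and matplotlib 3.10.9 were used. Named genes were all members, up to 4 genes per pathway list with the largest change among those past the test in Pax5 R31Q/- or Pax5 fl/fl Vav-Cre against Pax5 +/+, and up to 3 nearest in pattern. Ifngr1 and the marker genes were named after their values were seen. The members, lists and tests were chosen with earlier results of these data known. Alternatives changed the scaling, the pseudocount, the variance trend, the filter on low TPM, the genotypes fitted together, the fold threshold and the peak rules, and left out each library. Peak heights, the input library and proteins were not analysed here, and 1 marker gene is not reported here.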

Additional observations from a re-analysis of the deposited data

How the results depend on the processing

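Of the 600 alternative fits of single receptors, 548 kept both direction and side of the limma threshold, 27 lost a call, 13 gained one and 12 changed sign. No paired analysis was possible because the labels carry no replicate numbers. With 2 libraries per genotype, leaving out 1 assumes that the lone library varies like the others. Depth was not varied, and Csf3r and Csf1r rested on as few as 69 and 110 reads in a library.

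Receptors past an adjusted p of 0.05 in Pax5 R31Q/- against Pax5 +/+ cells numbered 1, beside 218 genes higher and 342 lower of all 13436 tested. With only the 2 genotypes in the fit they numbered 2, beside 265 genes higher and 312 lower of 12867. By limma-voom they numbered 3, beside 313 higher and 550 lower of 13436. By the rule of the study they numbered 0, beside 0.834% of all genes, and 1 at 2-fold, beside 1.98%. With limma-voom 1 passed that rule, for which the share over all genes was not counted. In Pax5 +/- cells, the 0 became 1 without the filter or the trend, beside 0.141% and 0.216% of all genes. In Pax5 fl/fl Vav-Cre against Pax5 +/+ cells, the 7 became 4 with only these genotypes and 4 to 6 when single libraries were left out (4 without library 2 of Pax5 +/+), and the 2 of the study's rule became 4 at 2-fold, 3 by limma-voom, 3 with the fold as the ratio of mean TPM (an alternative chosen after seeing the data) and 1 to 2 without single libraries (1 without library 2 of Pax5 +/+). In Pax5 R31Q/- against Pax5 +/- cells, the 1 stood beside 36 genes higher and 47 lower of 13436. The count became 0 without the filter, beside 18 higher and 19 lower of 19796, and 2 with only these genotypes, beside 170 higher and 233 lower of 12757. In Pax5 fl/fl Vav-Cre against Pax5 R31Q/- cells, the 4 stood beside 1978 genes higher and 2677 lower of 13436. Why the counts moved was not tested. For this last pair, median-ratio scaling moved the median log2 difference of all genes from -0.13 to -0.01, and the calls on Flt3, Csf2rb, Il2rg and Kit kept their direction.

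Signs changed where the difference was not called. When single libraries were left out, the Pax5 +/- difference from Pax5 +/+ ranged from -0.64 to 0.0031 for Crlf2, from -0.79 to 0.0068 for Csf2ra and from -0.55 to 0.12 for Csf2rb, with the positive values without library 2 of Pax5 +/+. The Pax5 fl/fl Vav-Cre difference from Pax5 +/+ ranged from -0.032 to 0.995 for Il7r and from -0.57 to 1.27 for Csf3r. Its difference from Pax5 R31Q/- ranged from -0.99 to 0.035 for Il7r, from -0.19 to 0.76 for Il2ra (-0.17 without library 2 of Pax5 fl/fl Vav-Cre) and from -0.92 to 0.92 for Csf3r, which was 0.11 with median-ratio scaling and 0.10 with quantile normalization.

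The 22 wild-type peaks within 10 kb were 42 within 50 kb and 13 in gene bodies. The common share was 66.7% to 84.6% over these, a 50% reciprocal overlap and unmasked peaks.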
